A study of Mus musculus with 4 samples.

Results

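Foxp3 was examined on its own, as 1 gene of the 55536 quantified, in polyA plus RNA-seq of inflammation-experienced regulatory T cells (Treg). The gene was found by its symbol in the transcript identifiers of the deposited tables, and its identifier, ENSMUSG00000039521.13, linked it to the gene tables. In the mm10 build with GENCODE M21 annotation it lies on the plus strand at chrX:7573644-7595245 and has 10 annotated transcripts. The only group was Treg of the mouse strain Foxp3CreERT2 x Rosa26YFP, from a male adult mouse aged 6 months, recorded as primary cells of bone marrow hematopoietic origin. Strains of this design express a drug-inducible Cre recombinase under control of the Foxp3 gene and carry a yellow fluorescent protein reporter at Rosa26. The labels do not say where the Cre cassette sits in the gene, and the annotation used for counting holds no such cassette. The 4 libraries were technical replicates 1 to 4 of biological replicate 1 and are called libraries 1 to 4. No other group was analysed here, so every test addresses only the spread between libraries, which may be technical.

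FOXP3 is a forkhead transcription factor of the FOXP family and the defining factor of regulatory T cells. Its loss causes fatal autoimmunity in scurfy mice and the IPEX syndrome in people. The protein binds DNA through its forkhead domain, dimerises through a leucine zipper and works with partners such as RUNX1 and NFAT to raise genes such as Il2ra and Ctla4 and to repress genes such as Il2. Nonsense-mediated decay is the surveillance pathway that degrades mRNAs whose stop codon lies well before the last exon junction.

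The transcript assigned most of the Foxp3 signal in every library was Foxp3-207, which GENCODE gives the biotype nonsense_mediated_decay. Foxp3-207 spans chrX:7579669-7593105, has a noncoding 83-base exon in its 5′ part and lacks a 77-base coding exon at chrX:7592159-7592235 that encodes the start of the forkhead domain. The length of that exon is not a multiple of 3 and leaves a remainder of 2, so the frame changes where it is left out. The exon is shown first, then the junction of Foxp3-207, in which the capitals mark the stop codon that is met 38 bases after the junction. The last line shows the protein-coding transcript Foxp3-210 at the same place, with the first 20 bases of the 77-base exon in capitals. All are plus-strand bases of the GENCODE M21 transcripts, written 5′ to 3′.
77-base exon: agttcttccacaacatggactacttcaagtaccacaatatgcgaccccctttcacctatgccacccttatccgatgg
Foxp3-207 junction to stop: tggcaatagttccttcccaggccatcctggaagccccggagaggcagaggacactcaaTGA
Foxp3-210 junction: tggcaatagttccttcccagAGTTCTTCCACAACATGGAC

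In the annotation the stop codon of Foxp3-207 starts at base 7592688 of chromosome X and that of Foxp3-210 at base 7593041. The annotated coding sequence is 1005 bases in Foxp3-207 and 1287 bases in Foxp3-210.

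Other transcripts lack other coding exons, and their sequences show which parts of the protein are concerned. Foxp3-205 lacks the 81-base exon at chrX:7589096-7589176, which encodes part of the leucine zipper, and Foxp3-208 lacks the 105-base exon at chrX:7587074-7587178 in the N-terminal part of the protein. Both lengths are multiples of 3, so the frame is kept. The human counterparts of these exons are the ones left out in known FOXP3 isoforms.
81-base exon: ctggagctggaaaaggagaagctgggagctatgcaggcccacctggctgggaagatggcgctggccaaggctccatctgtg
105-base exon: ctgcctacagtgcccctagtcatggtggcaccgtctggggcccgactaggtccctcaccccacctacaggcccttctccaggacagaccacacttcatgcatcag

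Each library was represented by an M21 gene and transcript table, by a direct transcript table made from the reads and an index, and by M4 whole-number counts on an older annotation. Depth ranged from 6648385 to 9341328 expected counts per library in the M21 gene table and from 6724013 to 9607115 counts in the M4 table. Library 4 was the shallowest in each table. The defining genes of T cells were abundant, with 7 of 7 listed markers above 10 TPM (transcript level per length and depth) in each library and Trac, the T cell receptor alpha constant region, at 3084 ± 228 TPM (SD, n = 4). Summed TPM in libraries 1 to 4 was 2571, 1943, 1879 and 1652 over 8 B cell markers, and 1067, 4.60, 38.6 and 17.5 over 6 erythroid markers. Ighm and Cd74 made up most of the B cell sum, and the median of the 8 markers was 38.2, 23.5, 10.2 and 30.2 TPM, with 7 of the 8 lowest in library 3. Summed TPM lay between 146 and 239 over 8 CD8 and NK markers. Nkg7 made up most of it, at 117, 108, 144 and 186 TPM in libraries 1 to 4. The median of these 8 markers was 5.4, 5.3, 2.3 and 4.8 TPM, and Ncr1 was at 0 in libraries 2 and 4. Over 8 myeloid markers the summed TPM lay between 8.63 and 41.6. No list had a member at 0 in every library, and the part of these cells in the Foxp3 values was not tested.

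Foxp3 was detected in all 4 libraries and stood higher in libraries 3 and 4 than in libraries 1 and 2. In the M21 gene table its level was 20.3, 21.7, 32.8 and 36.4 TPM in libraries 1 to 4, with a mean of 27.8 ± 8.01 (SD, n = 4). The highest was 1.79 times the lowest. The grouping of libraries was read from these values, and the 2 highest of 4 values always lie above the others. Of 9022 protein-coding genes (mean expected count of at least 50), 24.6% had libraries 3 and 4 both above libraries 1 and 2. In 22.2% both lay below. Among 22028 protein-coding genes Foxp3 ranked 5148th, 4530th, 3621st and 3276th by TPM in libraries 1 to 4. In bulk RNA, fewer Foxp3-expressing cells and less Foxp3 RNA per cell cannot be told apart. Between technical replicates, neither can be told from technical spread.

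The level rested on a small number of assigned counts per library. The expected count was 212, 245, 371 and 286 in libraries 1 to 4. As a share of depth these were 22.8, 26.2, 39.8 and 43.0 CPM (counts scaled to the same depth). Library 3 held the most Foxp3 counts, while library 4, the shallowest, held the largest share.

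The share of counts assigned to Foxp3 differed between the libraries by more than counting error in a Poisson likelihood ratio test on TMM-scaled depths fitted to 13045 genes (adjusted p = 1.22e-11, range 0.83 on the log2 scale). Of all genes tested 68.4% were called, so the call did not set Foxp3 apart. With a negative binomial model that lets genes of like abundance share their spread, Foxp3 was not called (adjusted p = 1.00, p = 0.178), and 1.65% of genes were. The spread in the negative binomial model was estimated from the same 4 libraries. It therefore asks only if Foxp3 varied more than genes of like abundance, not if the libraries differ. The same Poisson test called Foxp3 in the M4 counts (adjusted p = 4.32e-35, log2 range 1.03, 78.4% of genes called). It also called Foxp3 in the direct table (adjusted p = 1.85e-14, log2 range 0.73, 62.4% called). The SD of the log2 share over the 4 libraries was 0.39 for Foxp3, against a median of 0.22 for 1216 genes with a mean count within 1.2-fold of its own, which places Foxp3 at percentile 88.3 of them. In the M4 counts the SD was 0.46 against a median of 0.20 for 949 such genes, at percentile 96.9.

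In the M21 table the test separated neither libraries 1 and 2 nor libraries 3 and 4. Libraries 1 and 2 differed by 0.21 in log2 share (adjusted p = 0.222, Poisson test across all genes, 39.6% called), and libraries 3 and 4 by 0.13 (adjusted p = 0.483, 20.6% called). Libraries 1 and 3 differed by 0.71 (adjusted p = 4.36e-08, 44.3% called). The step from library 2 to library 3 was 0.49 in log2 share (adjusted p = 1.43e-04, 43.8% called). Libraries 2 and 4 differed by 0.59 (adjusted p = 1.35e-05, 42.8% called). Libraries 1 and 4, the ends of the order, differed by 0.83 (adjusted p = 1.83e-09, 42.5% called). The M4 counts also separated libraries 1 and 2 (log2 difference 0.48, adjusted p = 1.22e-06, 49.5% called). They did not separate libraries 3 and 4 (0.14, adjusted p = 0.151, 27.6% called).

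**Figure D1:**
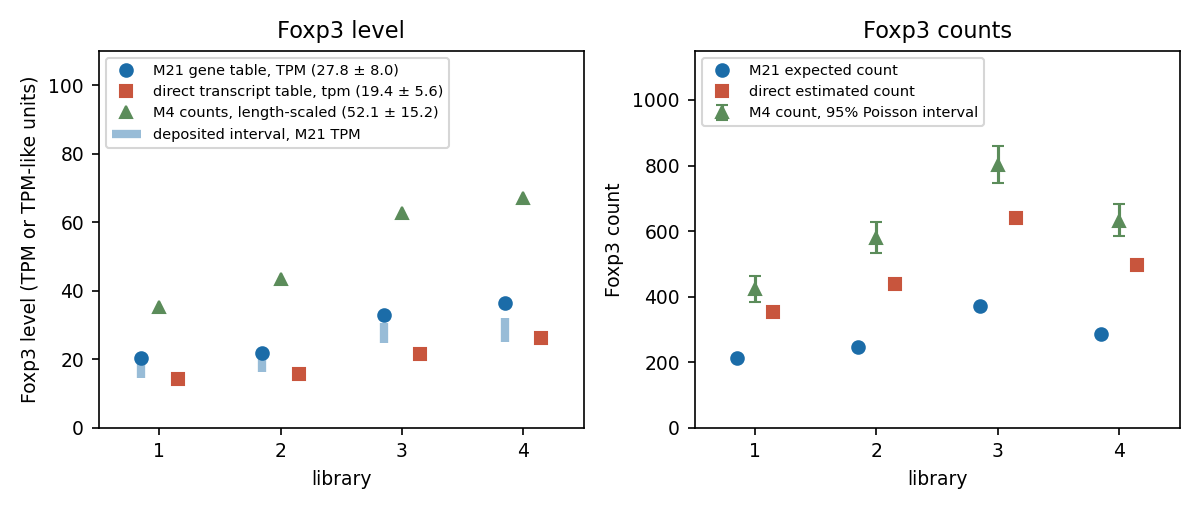
Foxp3 in libraries 1 to 4. Left: level in TPM or length-scaled TPM-like units, with the deposited interval of the M21 TPM as a bar. Right: counts, with the 95% Poisson interval of the M4 count. In all 3 tables libraries 3 and 4 lie above libraries 1 and 2 in level. The M4 points are the highest in each library on both scales, and the M21 point lies above its own interval in each library.

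The M21 gene table also gives a posterior mean TPM and an interval, whose confidence level is not given in the sources used here. The posterior mean of Foxp3 was 17.0, 18.4, 27.7 and 28.6 TPM in libraries 1 to 4. Its interval ran from 14.6 to 19.5, from 16.2 to 20.9, from 24.7 to 30.7 and from 25.2 to 32.0 TPM. The TPM estimate lay above the upper bound of its own interval in 4 of 4 libraries. The same held for 60.8% to 65.1% of all genes of at least 10 TPM, depending on the library. The intervals of libraries 1 and 2 overlapped, as did those of libraries 3 and 4, and neither pair overlapped the other.

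The tables gave unlike amounts of Foxp3 for the same libraries. The direct table held 354, 437, 640 and 496 estimated Foxp3 counts in libraries 1 to 4, which was 1.73 ± 0.046 times the M21 expected count (SD, n = 4). The M4 table held 422, 579, 801 and 632 counts, which was 2.18 ± 0.15 times the M21 expected count. The exact 95% Poisson intervals of the M4 counts were 383 to 464, 533 to 628, 746 to 858 and 584 to 683. They describe counting error only. Because both tables process the same libraries, these intervals do not test the gap to M21. The direct table also held more counts in all, 9494828 to 13586942 per library, and by CPM its log2 ratio to M21 was 0.29 ± 0.04 for Foxp3 (SD, n = 4), against a median of -0.08 over 12665 genes. The order of the tables in counts, M21 lowest and M4 highest, was the same in 4 of 4 libraries.

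The gap to M4 was also present on CPM, which removes differences in depth. On the scale log2((CPM + 1)/(CPM + 1)) over 22195 genes matched by identifier, Foxp3 was higher in M4 than in M21 by 0.85, 1.07, 0.98 and 0.99 in libraries 1 to 4, a mean of 0.97 ± 0.09 (SD, n = 4). The median over the 10049 genes that reached 1 TPM in each of the tables was 0.15, and 289 of them, Foxp3 included, lay at or above Foxp3, which stood at percentile 97.1. TMM scaling moved that median to 0.26 and Foxp3 to 1.08. Above a log2 ratio of 1 lay 2.56% of genes, and Foxp3 was just below that line. Protein-coding genes whose exons overlap a gene on the other strand, as Foxp3 does, had a median ratio of 0.17 (3159 genes) and those without such overlap 0.12 (6616 genes). Genes led by a nonsense-mediated decay transcript had a median of 0.17 (193 genes) and those led by another transcript 0.15 (6554 genes), both among genes of at least 10 TPM. Foxp3 stood above the upper quartile of each of these 4 sets, which lay between 0.51 and 0.55.

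**Figure D2:**
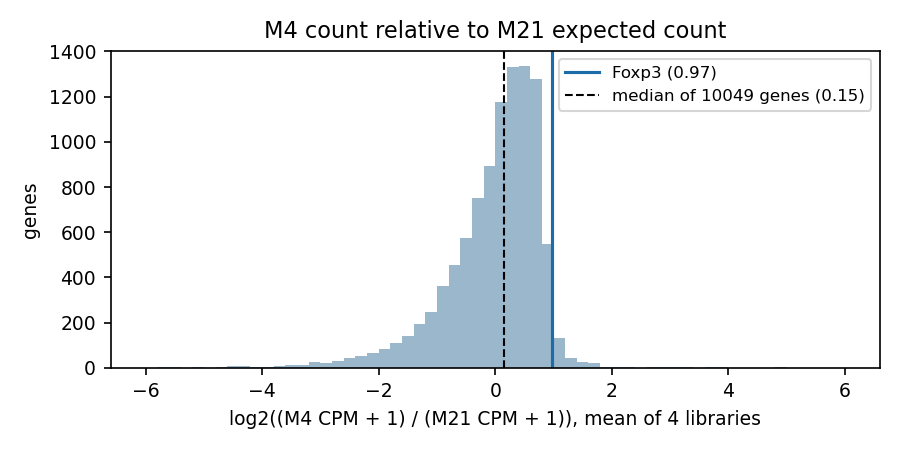
Number of genes (vertical axis) by the log2 ratio of the M4 count to the M21 expected count, as a mean of 4 libraries (horizontal axis). The solid line marks Foxp3 at 0.97 and the dashed line the median of 10049 genes at 0.15.

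On the TPM scale the direct table gave the lower Foxp3 value. It was 14.2, 15.7, 21.7 and 26.2 tpm in libraries 1 to 4, a mean of 19.4 ± 5.57 (SD, n = 4). The log2 ratio of direct tpm to M21 TPM, with 1 added to each, was -0.49 ± 0.06, against a median of -0.72 over 12665 genes. Protein-coding genes held 49.2% to 53.7% of the direct tpm and 82.5% to 85.5% of the M21 TPM. With both tables rescaled over protein-coding genes only, the ratio turned to 0.19 ± 0.05 for Foxp3 and the median to -0.15. Relative to the median of the genes compared, Foxp3 was higher in the direct table by 0.23 and, over protein-coding genes, by 0.34.

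Scaled by M21 effective length, the M4 counts placed Foxp3 at 35.4, 43.3, 62.6 and 67.2 TPM-like units in libraries 1 to 4. The mean was 52.1 ± 15.2 (SD, n = 4). That length was 1461 bp for Foxp3, near the 1557 bases of Foxp3-207, while its 4 long transcripts have 3572 to 3834 bases. The M4 gene models were not available, so these levels, and the ranks and ratios drawn from them, rest on a length borrowed from M21. The rank of Foxp3 among 21352 protein-coding genes in the M4 table was 3568, 2821, 2122 and 1918. In the direct table it was 4423, 3910, 3164 and 2817 among 21951. Foxp3 thus stood nearer the top in libraries 3 and 4 in each of the 3 tables, whatever the level.

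Foxp3-207 held 76.0%, 91.8%, 78.5% and 79.8% of the Foxp3 TPM in libraries 1 to 4, a mean of 81.5% ± 7.01 (SD, n = 4). Library 2 was the highest, and the other libraries lay between 76.0% and 79.8%. The level of Foxp3-207 itself was 15.4, 19.9, 25.8 and 29.0 TPM. Its interval began at 9.40, 13.5, 17.7 and 18.6 TPM, and the upper bounds of the other 9 transcripts were at most 2.81, 1.69, 5.37 and 3.85 TPM in the same libraries. In the direct table Foxp3-207 held 73.4%, 90.5%, 75.6% and 78.4% of the Foxp3 tpm, so library 2 was again the highest. None of the tables reports reads across the junctions, so these shares are estimates from counts assigned among overlapping transcripts.

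A leading transcript of this biotype was uncommon. Among 6881 protein-coding genes of at least 10 TPM, a nonsense-mediated decay transcript led in 201 (2.92%; 8.80% of the 2285 genes that have one), and in 164 of these it also led in the direct table. The share of such transcripts in the mean TPM was 81.1% for Foxp3, and 24 genes (0.349%), Foxp3 included, had at least that share.

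The annotation ties several features to Foxp3-207 alone. It is the only transcript of the 10 that joins the 83-base exon to a short 3′ end, one within 64 bases past the start of the full-length stop codon, and no transcript has the 83-base exon, the 77-base exon and a short 3′ end together. The 4 transcripts with the 83-base exon (Foxp3-202, Foxp3-203, Foxp3-204 and Foxp3-207) held 82.4% ± 7.17 of the Foxp3 TPM. The 3 with a short 3′ end (Foxp3-205, Foxp3-207 and Foxp3-210) held 89.1% ± 4.70. The 4 with a long 3′ end, which reach at least 2193 bases past that point, held 1.29%, 1.28%, 2.66% and 0.56% in libraries 1 to 4. The 3 transcripts that GENCODE pairs with RefSeq mRNAs (Foxp3-202, Foxp3-203 and Foxp3-204) held 0.93% ± 0.41. Transcripts with the coding sequence of 1287 bases, 6 in all, held 15.1%, 7.59%, 21.5% and 14.8%.

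**Figure D3:**
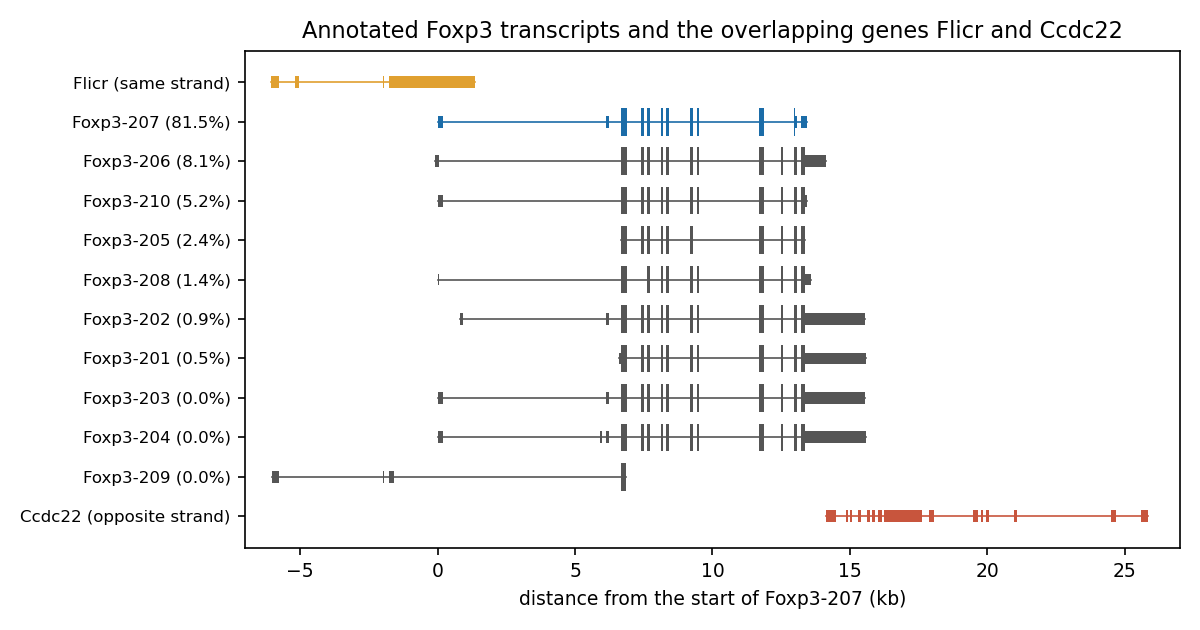
Exons of the 10 annotated Foxp3 transcripts and of the overlapping genes Flicr (same strand) and Ccdc22 (opposite strand), by distance from the start of Foxp3-207 in kb. Tall boxes are coding, low boxes noncoding or, for the other genes, all exons. The percentage is the mean share of the Foxp3 TPM. Foxp3-207, in blue at 81.5%, has no box for the 77-base exon, and its 3′ end is short.

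The remaining transcripts were small and varied in their ranking. Foxp3-206, which starts upstream of Foxp3-207 and has a 3′ end of middle length, held 13.8%, 3.80%, 6.54% and 8.35% of the Foxp3 TPM in libraries 1 to 4. Its level was at most 3.04 TPM, in library 4. Foxp3-210, which has the same start and end as Foxp3-207 and contains the 77-base exon, held 0%, 2.51%, 12.3% and 5.91%, and 0.82%, 3.17%, 4.01% and 0% in the direct table. Its interval reached 0 in libraries 1, 2 and 4 and began at 0.58 TPM in library 3.

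Foxp3-205, without the zipper exon, held 8.91% and 0.67% of the Foxp3 TPM in libraries 1 and 2 of the M21 table and was listed at 0 in libraries 3 and 4. The direct table gave it 12.8%, 3.30%, 10.5% and 9.996%, so the tables disagree on it in libraries 3 and 4. Foxp3-208, without the 105-base exon, was at 5.40% in library 4 and listed at 0 in the others, and at 0 in all 4 in the direct table. Foxp3-201 was at 2.06% in library 3 and listed at 0 elsewhere, and Foxp3-202 lay between 0.56% and 1.29%. Foxp3-203, Foxp3-204 and Foxp3-209 were listed at 0 in all 4 libraries in the M21 table, and the direct table gave Foxp3-204 a share of 0.35% to 1.13%. At counts this low a share listed at 0 is not evidence of absence.

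**Figure D4:**
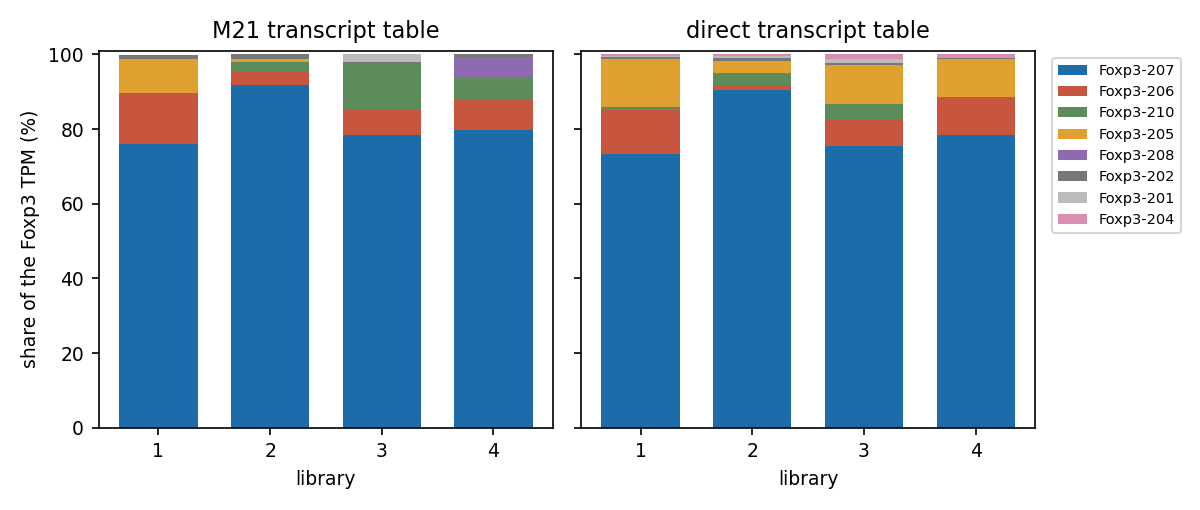
Share of the Foxp3 TPM (vertical axis, %) held by each transcript in libraries 1 to 4, in the M21 transcript table (left) and the direct transcript table (right). Foxp3-203 and Foxp3-209, at 0 in both, are not drawn. Foxp3-207 fills 73.4% to 91.8% of each bar, and the tables differ most in Foxp3-205.

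Foxp3 shares its ends with other genes. Flicr, a long noncoding RNA that runs into the Foxp3 start on the same strand, was at 4.91, 4.43, 4.15 and 3.62 TPM in libraries 1 to 4. Its share of counts did not pass the test (adjusted p = 0.110, Poisson test across all genes), but did in the direct table (0.0108). Foxp3-207 has 178 of its 1557 bases in Flicr exons. Ccdc22, whose product is part of the CCC complex of endosomal sorting, lies on the opposite strand at chrX:7593809-7605517 and ends toward Foxp3. Its exons share 590 bases with each of the 4 long Foxp3 transcripts and none with Foxp3-207. The strand setting of the counting is not given in the sources used here, so in those 590 bases reads of the genes may not have been told apart.

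Ccdc22 was at 18.1, 16.3, 6.33 and 8.57 TPM in libraries 1 to 4, so libraries 3 and 4, high for Foxp3, were low for it (adjusted p = 6.36e-31, Poisson test across all genes). With the negative binomial model its adjusted p was 0.0590. Foxp3 stood at 1.12, 1.33, 5.18 and 4.25 times the Ccdc22 TPM in libraries 1 to 4. The sum of both genes was steadier, at 53.0, 56.3, 51.1 and 58.2 CPM in the M21 table and 105, 119, 112 and 128 CPM in M4. This sum was chosen after the values were seen. Genes that run in opposite directions tend to give a steadier sum, so it tests no link between them. In M4 Ccdc22 held 564, 560, 233 and 225 counts, between 2.00 and 2.22 times its M21 expected count, which put its log2 ratio between the tables at 0.91 beside 0.97 for Foxp3.

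The other neighbours were low. Ppp1r3f, which codes for a protein phosphatase subunit, overlaps the upstream end on the opposite strand. It was at 5.06, 6.54, 3.92 and 5.68 TPM in libraries 1 to 4 (adjusted p = 0.382, Poisson test across all genes, but 1.86e-05 in M4). Gm36995, an opposite-strand processed transcript that spans the whole gene, was at 1.98, 1.99, 0.93 and 0.98 TPM and so was lower in libraries 3 and 4, as Ccdc22 was (adjusted p = 5.98e-07). Usp27x and Cacna1f, the nearest protein-coding genes on either side that do not overlap Foxp3, were at most 0.58 and 0.19 TPM.

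**Figure D5:**
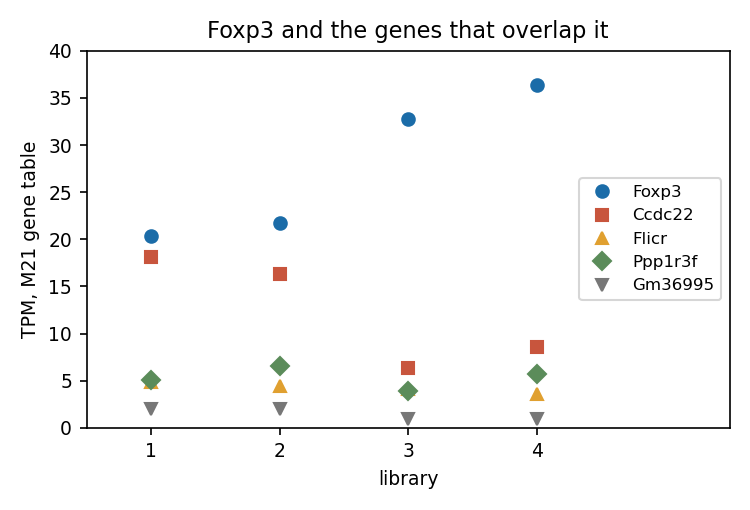
Level in TPM (vertical axis) of Foxp3 and of the 4 genes that overlap it, in libraries 1 to 4, from the M21 gene table. Foxp3 is highest in libraries 3 and 4 (32.8 and 36.4 TPM) and Ccdc22 in libraries 1 and 2 (18.1 and 16.3 TPM).

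Within its own family Foxp3 was second to Foxp1, a broadly expressed regulator of lymphocyte quiescence. Foxp1 was at 249, 240, 205 and 240 TPM in libraries 1 to 4, which was 12.3, 11.1, 6.26 and 6.59 times Foxp3. From length-scaled M4 counts the same ratio was 5.54, 4.12, 2.64 and 2.57, so the distance depended on the table while Foxp1 stayed the higher. Foxp4 was at 3.28 ± 1.36 TPM and Foxp2 at 0.12 ± 0.14 TPM (SD, n = 4).

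Among 26 genes known to be raised in Foxp3-expressing cells, 22 had a higher mean TPM than Foxp3 in the M21 table, 20 in the direct table and 18 from length-scaled M4 counts. Il2ra, the interleukin-2 receptor alpha chain, was at 214, 199, 198 and 205 TPM in libraries 1 to 4, a narrower spread than that of Foxp3. It stood at 5.62 to 10.5 times Foxp3 in M21 TPM and at 1.21 to 2.88 times from M4 counts. Ctla4, an inhibitory receptor, was at 141, 145, 162 and 183 TPM, or 4.95 to 6.96 times Foxp3. Ikzf2, which encodes Helios, was at 279, 350, 562 and 457 TPM, or 12.6 to 17.1 times Foxp3 by TPM and 1.08 to 1.73 times from M4 counts. Izumo1r, which encodes folate receptor 4, was the most abundant of the list at 1192 ± 242 TPM and was lowest in library 4, where Foxp3 was highest. Of the 26 genes, 10 had libraries 3 and 4 both above libraries 1 and 2, as Foxp3 did, and 5 had both below. Among 9022 protein-coding genes these shares were 24.6% and 22.2%. Tnfrsf18, the GITR receptor, was at 512 ± 59.3 TPM, and Nfil3 and Plagl1 were the lowest at 2.52 ± 1.25 and 1.39 ± 0.70. All 26 differed between libraries by the Poisson test, against 68.4% of all genes, with a median log2 range of 0.53 against 0.58 over all genes tested.

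Of 19 genes known to be lowered in Foxp3-expressing cells, 11 stood above Foxp3 in mean TPM, 10 in the direct table and 8 from length-scaled M4 counts. Il2, the cytokine gene that FOXP3 represses, was at 0.45, 1.08, 1.14 and 1.42 TPM and was too low for the test. The phosphodiesterase gene Pde3b, another repressed target, was at 1.88 ± 0.42 TPM. Ptpn22, a phosphatase of T cell receptor signalling, Tcf7, which encodes TCF1, and Id2, an inhibitor of E proteins, were the highest of the list at 389 ± 31.9, 322 ± 12.6 and 287 ± 32.6 TPM. Of 18 tested, 16 (88.9%) differed between libraries by the Poisson test, against 68.4% of all genes tested. Their median log2 range was 0.48, against 0.58 over all genes tested.

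Genes that drive Foxp3 transcription lay on both sides of its level. Of 30 such genes 16 had a higher mean TPM than Foxp3 in the M21 table, 12 in the direct table and 9 from length-scaled M4 counts. Of the 30 tested, 28 (93.3%) differed between libraries by the Poisson test, against 68.4% of all genes tested. Their median log2 range was 0.47, against 0.58 over all genes tested. Il2rg and Il2rb, the shared gamma and the beta chain of the interleukin-2 receptor, were at 1434 ± 296 and 383 ± 57.6 TPM and Ets1, a factor that binds the Foxp3 enhancers, at 711 ± 130 but at 61.8 units from length-scaled M4 counts. Stat5a and Stat5b, which carry the interleukin-2 signal to the Foxp3 gene, were at 42.8, 25.4, 23.7 and 24.7 TPM and at 41.9, 24.5, 25.5 and 25.4 TPM in libraries 1 to 4. Both were highest in library 1, where Foxp3 was lowest, and lay between 23.7 and 25.5 TPM in the others. Of the 30 genes, 9 had libraries 3 and 4 both above libraries 1 and 2, as Foxp3 did, and 5 had both below. Among 9022 protein-coding genes these shares were 24.6% and 22.2%. Nr4a2 and Nr4a3, orphan receptors induced by T cell receptor signals, were the lowest at 1.44 ± 0.94 and 1.09 ± 0.43 TPM.

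A further list held 8 enzymes and readers of DNA methylation that act at the Foxp3 locus. Of these, 3 stood above Foxp3 in mean TPM, 3 in the direct table and 1 from length-scaled M4 counts. Of the 8 tested, 6 (75%) differed between libraries by the Poisson test, against 68.4% of all genes tested. Their median log2 range was 0.52, against 0.58 over all genes tested. Dnmt1, the maintenance methyltransferase, was at 47.2 TPM in library 1 and 31.1 to 32.0 in the others. Tet2, a methylcytosine dioxygenase, was at 41.9, 39.3, 48.5 and 44.8 TPM, and Mbd2, a methyl-CpG binding protein, at 33.3 ± 7.50. Tet1 and Dnmt3b were the lowest at 5.83 ± 1.34 and 3.57 ± 0.73 TPM.

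Of 25 partners of the FOXP3 protein 15 stood above Foxp3 in mean TPM, 14 in the direct table and 11 from length-scaled M4 counts. Between libraries 24 of the 25 (96.0%) differed by the Poisson test, against 68.4% of all genes tested. Their median log2 range was 0.45, against 0.58 over all genes tested, so the larger share of calls does not mean a wider spread. The median level of the 25 was 47.7 TPM, against 14.1 over all genes tested, and its part in the calls was not tested. Runx1 and Cbfb, whose products form the core-binding factor complex, were close to Foxp3 at 29.9 ± 4.59 and 25.5 ± 7.53 TPM. From M4 counts scaled by M21 lengths they stood at 7.87 and 5.80 units and Foxp3 at 52.1, so the distance depended on the table and on those lengths. Gata3 was at 96.5 ± 12.0 TPM and Ikzf4, which encodes Eos, at 103 ± 13.1. Foxp4 and the deacetylase gene Hdac9 were the lowest of the list, the latter at 1.25 ± 0.38 TPM.

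Of 13 enzymes modifying the FOXP3 protein, 6 stood above Foxp3 in mean TPM, 4 in the direct table and 1 from length-scaled M4 counts. The 12 that could be tested all differed between libraries by the Poisson test, against 68.4% of all genes tested. Their median log2 range was 0.64, against 0.58 over all genes tested. The median level of the 13 was 26.8 TPM, against 14.1 over all genes tested, and its part in the calls was not tested. The kinase gene Pim1 was at 186 ± 16.9 TPM, the arginine methyltransferase gene Prmt1 at 74.0 ± 17.6 and the ubiquitin ligase gene Stub1 at 60.8 ± 8.48. The deacetylase gene Sirt1 was at 5.70 ± 1.69 TPM, and Usp44, a deubiquitinase of FOXP3, at 0.37 ± 0.22 was the lowest.

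Markers of other cells also differed between libraries, and each gene named next passed the Poisson test, which called 68.4% of all genes tested. Hba-a2, an alpha globin, was at 396, 0.67, 14.4 and 2.68 TPM and Hbb-bs, a beta globin, at 344, 0.73, 13.7 and 9.18, so library 1, lowest for Foxp3, was the highest for both. Ighm, the immunoglobulin mu chain, was at 1244, 964, 1159 and 698 TPM. Cd4, the coreceptor of this T cell lineage, was at 516, 495, 309 and 318 TPM, and was lower in libraries 3 and 4, where Foxp3 was higher. Of the 7 T cell markers 4, Cd4 included, had both of these libraries below the others and 2 had both above, among them Cd3g, a chain of the T cell receptor complex, at 1249, 1338, 1493 and 1501 TPM. The part of these differences in the Foxp3 level was not tested.

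Of 9021 protein-coding genes with a mean expected count of at least 50, 395 (4.38%) had the same order of the 4 libraries, and 65 lay within a root mean square difference of 0.1 in centred log2(TPM + 1). The closest were Guf1 (0.036), Chic2 (0.037), Plekha3 (0.038), Cep295 (0.038) and Nek3 (0.043), measured over 4 libraries. Guf1, the closest, was at 3.56, 3.81, 6.62 and 6.96 TPM. Of 9022 such genes, Foxp3 included, 24.6% had libraries 3 and 4 both above libraries 1 and 2, as Foxp3 did, and 22.2% had them both below.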

How the data were processed

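PolyA plus RNA-seq of 4 libraries (technical replicates of 1 biological replicate) was analysed. Per the labels and the submitters' notes beside the files, all tables are on mm10. The deposited M21 gene and transcript tables hold, per the file headers, expected counts, TPM, FPKM and each transcript's percent of the TPM of its gene, and derive from a transcriptome alignment with GENCODE M21. The direct transcript table, also deposited, holds estimated counts and tpm, per the file headers, and was made on GENCODE M21 from read files and an index, per those notes. The M4 table holds whole-number counts per gene that the authors derived from a genome alignment with GENCODE M4. The sources used here name no programs, versions or strand settings, and it is not stated whether a unit is a read or a fragment, which can change counts between tables.

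From these, gene sums, CPM, log2 ratios (pseudocount 1, genes reaching 1 TPM in each table) and exact Poisson intervals (95%) were computed with Python 3.11.15, pandas 2.3.3 and scipy 1.17.1. Rows outside the annotation (tRNA, spike-ins and phiX) held 0.133% to 0.504% of expected counts and were left out of counts and tests. M4 counts were divided by the mean M21 effective length (at least 50 bp) and scaled to the TPM total of the 22195 matched genes. Expected counts were rounded, and a Poisson likelihood ratio test on TMM-scaled library sizes (edgeR 4.0.16, R 4.3.3) was fitted to every gene whose mean count reached 10 (Benjamini-Hochberg adjusted, threshold 0.05). It was tried on simulated Poisson counts in which some genes were changed. Those counts held no other spread beyond counting error, so they do not show how the test behaves where libraries spread more. DESeq2 1.42.0 size factors, a negative binomial model, other scalings, filters, pseudocounts and tables, and leaving out each library, were alternatives.

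Genes named in the text were drawn from Foxp3, its transcripts, overlapping and nearest genes, the FOXP family, the 3 highest and 2 lowest of each of 12 lists by mean TPM, 13 chosen regulators and targets, and the 5 protein-coding genes most like Foxp3 over the libraries. The members and lists were chosen with earlier results of these data known. Sequences were read from GENCODE M21 transcripts. Depth was 6648385 to 9341328 expected counts per library.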

Additional observations from a re-analysis of the deposited data

Results flagged for a closer look

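In 11 of 123 sets of 4 library values, 1 library stood apart from the other 3 by more than a gap that chance gives in about 1 of 20 such groups. Among the Foxp3 transcripts these were Foxp3-201 with 2.06% of the Foxp3 TPM in library 3 (0 in the others), Foxp3-205 with 8.91% in library 1 (at most 0.67% in the others) and Foxp3-208 with 5.40% in library 4 (0 in the others). With 3 libraries at 0 any value above 0 stands apart by this measure. The direct table gave Foxp3-201 0.38%, 0.67%, 1.09% and 0%, Foxp3-205 12.8%, 3.30%, 10.5% and 9.996%, and Foxp3-208 0% in all 4. Library 1 stood apart in Dnmt1 at 47.2 TPM (31.1 to 32.0 in the others), Stat5a at 42.8 TPM (23.7 to 25.4), Stat5b at 41.9 TPM (24.5 to 25.5) and Hdac9 at 1.81 TPM (1.01 to 1.11). Library 1 was also far higher in the globin genes Hba-a1 at 220.3 TPM (0 to 4.58 in the others), Hba-a2 at 396 TPM (0.67 to 14.4) and Hbb-bs at 344 TPM (0.73 to 13.7). Cacna1f, the gene downstream of Foxp3, was at 0.19 TPM in library 3 and at most 0.02 in the others, on 1 expected count each in libraries 2 and 3. The Foxp3 gene level did not stand apart in any library.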

How the results depend on the processing

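Of 65 values recomputed under an alternative, 57 kept their direction and call or stayed within the spread between libraries. The Foxp3 level of 27.8 TPM moved to 19.4 in the direct table and to 52.1 from length-scaled M4 counts, and ranged from 24.9 to 30.3 when each library was left out. The posterior mean TPM, added after the data were seen, gave 22.9 for the level and 76.8% for Foxp3-207. With the negative binomial model Foxp3, at a log2 range of 0.83, was not called, and the number of genes called fell from 8925 to 215. That model takes its spread from the same libraries, so it does not test if they differ. M4 counts brought the difference between libraries 1 and 2 past the threshold (0.48). Without each library in turn the log2 range was 0.59 to 0.83 with Foxp3 called each time, and 7108 to 8132 genes were called. The share of Foxp3-207 stayed between 78.1% and 83.4%, the M4 to M21 log2 ratio between 0.94 and 1.01, and the direct to M21 ratio between -0.51 and -0.46. TMM scaling gave an M4 to M21 ratio of 1.08. The direct to M21 ratio was -0.42 with a pseudocount of 5 and turned to 0.19 over protein-coding genes only. Apart from what each alternative changes by construction, the cause was not tested. No paired analysis was possible because the libraries form 1 group. With 212 to 371 expected Foxp3 counts per library, minor transcripts are not resolved.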
